A study of Mus musculus with 4 samples.

Results

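Expression of 10 genes for inhibitory checkpoint receptors was examined in CD8+ T cells from mouse lung: Pdcd1, Ctla4, Lag3, Tigit, Havcr2, Cd160, Btla, Vsir, Cd96 and Cd200r1. They were taken by symbol from the deposited gene tables, where they are 10 of 55401 genes, and each was matched to 1 row. The cells came from C57BL/6J mice, were sorted as CD3+CD8+, and were sequenced from polyA RNA after SMART-Seq low-input reverse transcription. The 4 groups were IPF-LC mice given a CD4-depleting antibody, IPF-LC mice given isotype antibody, LC mice given the CD4-depleting antibody and LC mice given isotype antibody. The labels name the IPF-LC and LC models without spelling them out and give no age, time point or number of mice, and no group of untreated or tumour-free mice was analysed here. Each group is 1 library, so no value has a replicate error and no pair of libraries was tested.

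Inhibitory checkpoint receptors are surface proteins, some but not all of them put up by T cells on activation, that lower signalling through the antigen receptor and CD28. PD-1, BTLA and TIGIT carry tyrosine motifs in their tails that recruit phosphatases such as SHP-1 and SHP-2, whereas CTLA-4 takes CD80 and CD86 away from CD28, and TIGIT and CD96 compete with the activating receptor CD226 for the poliovirus receptor. In tumours and chronic infection, CD8+ T cells that keep seeing antigen hold several of these receptors together with the transcription factor TOX, a state called exhaustion, and regulatory T cells also carry high CTLA-4 and TIGIT.

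The 4 libraries held between 14946579 and 16217677 expected counts, an estimate of reads per gene. Levels are given as deposited TPM, a transcript abundance per length, or as CPM, the count relative to the TMM-scaled library total. Ratios are log2 of CPM with a prior count of 0.5, and their 95% intervals cover counting error only, since reads without molecular identifiers are not independent molecules. The 12 CD8 T cell markers were all detected, summed to between 6551 and 7784 CPM, and none was 2-fold apart in any of the 4 comparisons. The list includes CD3 chain genes, which other T cells also express, so its sum does not measure CD8+ cells alone. Taking the CD4-depleted over the isotype library, Cd8a had a log2 ratio of -0.55 for IPF-LC mice, against -0.07 for LC mice. Cd8b1 stood at -0.57 in the former model, whereas its LC value was 0.26. The bearing of these values on the receptor results was not tested. Cd4 had 0 counts in the IPF-LC CD4-depleted library, 73 in the IPF-LC isotype library, 16 in the LC CD4-depleted library and 12 in the LC isotype library. Markers of other cells were present and unequal: the sum over 20 markers of macrophages and monocytes was 1310 CPM in the IPF-LC CD4-depleted library, 3613 in the IPF-LC isotype library, 380 in the LC CD4-depleted library and 5254 in the LC isotype library. In the LC CD4-depleted library 6 of these 20 were at 0, including the defining markers Adgre1, Fcgr1 and C1qa. Csf1r had 2 counts there against 2286 in the LC isotype library. Ccr2 and Ly6c2, also on the list, are expressed by activated T cells as well. The list of natural killer cell markers includes Gzma and Prf1, which cytotoxic CD8+ T cells also express. Its defining gene Ncr1 was at 0 in both CD4-depleted libraries. The 12 markers on it summed to 270, 336, 158 and 600 CPM in the same order of libraries. The sum of 11 B cell markers was 430, 799, 497 and 1120 CPM in that order, with Pax5 at 0 in every library but LC isotype, and that of 10 gamma delta T cell markers was 87.1, 98.8, 49.4 and 87.9 CPM.

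RefSeq promoters were at hand for 8 of the 10 genes, and 4 are printed because 3 of them (Pdcd1, Ctla4 and Tigit) were higher together after depletion in IPF-LC while the fourth, Havcr2, was not. Each runs from 250 bases before to 50 bases after the annotated start, 5′ to 3′ on the gene's strand, in build GRCm38.p6. They are Pdcd1 at chr1:94052504-94052803 on the minus strand, Ctla4 at chr1:60908775-60909074 on the plus strand, Tigit at chr16:43664135-43664434 on the minus strand and Havcr2 at chr11:46454681-46454980 on the plus strand. Capitals mark matches, on either strand, to the NFAT core GGAAA, the AP-1 site TGANTCA, the Runx site TGTGGT and the forkhead core GTAAACA.
Pdcd1: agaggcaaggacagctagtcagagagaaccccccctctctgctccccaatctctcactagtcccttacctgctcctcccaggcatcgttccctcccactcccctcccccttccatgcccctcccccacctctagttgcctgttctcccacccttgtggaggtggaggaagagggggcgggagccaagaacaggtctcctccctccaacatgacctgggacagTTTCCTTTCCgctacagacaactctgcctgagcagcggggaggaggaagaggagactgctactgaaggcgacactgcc
Ctla4: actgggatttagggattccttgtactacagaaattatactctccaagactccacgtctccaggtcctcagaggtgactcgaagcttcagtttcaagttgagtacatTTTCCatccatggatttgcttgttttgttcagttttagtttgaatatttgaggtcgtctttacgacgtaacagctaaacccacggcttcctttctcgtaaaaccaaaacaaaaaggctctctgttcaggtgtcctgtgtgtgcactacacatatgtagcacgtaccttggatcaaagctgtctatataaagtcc
Tigit: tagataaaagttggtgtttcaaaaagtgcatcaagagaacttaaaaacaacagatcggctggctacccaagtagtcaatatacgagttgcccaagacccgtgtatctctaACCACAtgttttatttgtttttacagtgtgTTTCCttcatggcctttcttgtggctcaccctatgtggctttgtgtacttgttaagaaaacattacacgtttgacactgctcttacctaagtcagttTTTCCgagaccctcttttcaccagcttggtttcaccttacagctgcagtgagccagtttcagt
Havcr2: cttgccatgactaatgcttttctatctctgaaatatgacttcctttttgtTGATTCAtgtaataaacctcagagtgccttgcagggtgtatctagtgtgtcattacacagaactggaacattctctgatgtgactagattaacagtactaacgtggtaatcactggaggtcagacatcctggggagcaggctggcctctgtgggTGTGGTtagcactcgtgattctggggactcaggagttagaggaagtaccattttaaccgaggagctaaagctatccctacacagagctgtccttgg
The NFAT core, which also holds the GGAA letters of ETS factors, matched 2 times in Pdcd1, 1 time in Ctla4, 2 times in Tigit and 0 times in Havcr2. It occurs in 61.3% of 27025 RefSeq promoters of the same length, so its presence is common. The AP-1 site was found 1 time in Havcr2 and in none of the other 7 genes with a promoter, and 7.93% of all promoters hold it. The Runx site matched in 5 of the 8 genes with a promoter, Tigit, Havcr2, Cd160, Btla and Cd96, and is held by 16.9% of all promoters. The forkhead core, held by 3.55%, matched in none of the 8. Cd96, which is not printed, held 5 NFAT cores and 2 Runx sites. These letter matches describe the windows and say nothing of binding.

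All 10 receptor genes were detected in all 4 libraries, and 8 of them averaged at least 10 CPM, the exceptions being Lag3 and Cd200r1. By TPM, Ctla4, Cd96, Vsir, Tigit and Pdcd1 stood well above the others in most libraries. The 10 genes summed to 672 TPM in the IPF-LC CD4-depleted library, 472 in the IPF-LC isotype library, 661 in the LC CD4-depleted library and 617 in the LC isotype library. The leading gene changed with the library. Ctla4 led in the IPF-LC CD4-depleted library with 26.0% of the summed TPM, Cd96 led in the IPF-LC isotype library with 35.5% and in the LC CD4-depleted library with 24.6%, and Vsir led in the LC isotype library with 19.0%. In the IPF-LC isotype library Cd96 and Vsir, which varied least among the abundant genes, made up most of the receptor RNA, and Ctla4 took 7.07% and Pdcd1 5.67%. In the LC isotype library the top 5 lay close together, with 117 TPM for Vsir, 115 for Pdcd1, 109 for Cd96, 85.3 for Tigit and 78.6 for Ctla4. With 1 library each, the order of neighbours such as Vsir and Pdcd1 there has no spread to be judged against.

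**Figure D1:**
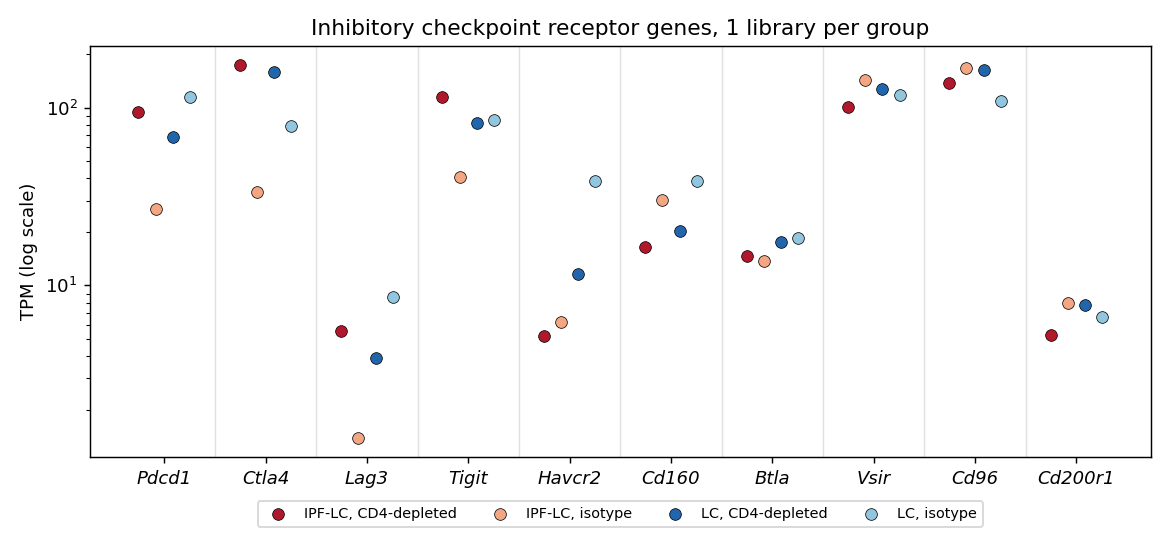
Deposited TPM (log scale) of the 10 receptor genes, each point 1 library. Pdcd1, Ctla4, Lag3 and Tigit are lowest in the IPF-LC isotype library (26.8, 33.4, 1.38 and 41.0 TPM), while Havcr2 stands apart in the LC isotype library at 38.9 TPM.

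The first comparison asks how CD8+ T cells of the IPF-LC lung differ when CD4+ cells have been depleted. Ctla4, Lag3, Pdcd1 and Tigit were all higher in the CD4-depleted library, by 2.92- to 5.56-fold, and no receptor gene was 2-fold lower. The counts past 2-fold were thus 4 of 10 higher and 0 of 10 lower. Of the 8433 genes that averaged 10 CPM or more, 4.08% lay past 2-fold on the higher side and 6.02% on the lower side, and at a minimum of 1 CPM, which also admits Lag3 and Cd200r1, the shares were 8.84% and 13.6%. The median log2 ratio of the 10 genes was 0.01, against -0.02 over all genes at that lower minimum, so the list split rather than shifted. In bulk RNA, more cells that carry a transcript and more transcript per cell cannot be told apart.

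Ctla4 (ENSMUSG00000026011) encodes the receptor that binds CD80 and CD86 more tightly than CD28 does. It stood at 175 TPM in the IPF-LC CD4-depleted library, against 33.4 TPM in the IPF-LC isotype library. The log2 ratio was 2.47 (95% counting interval 2.35 to 2.60), the largest of the 10 in this comparison, from 3410 counts in the CD4-depleted and 615 in the isotype library. Pdcd1 (ENSMUSG00000026285) encodes PD-1, the receptor for PD-L1 and PD-L2. It had 94.95 TPM in the CD4-depleted library and 26.8 TPM in the isotype library, a log2 ratio of 1.88 (1.74 to 2.03), or 3.68-fold. Tigit (ENSMUSG00000071552), whose product binds the poliovirus receptor, had 116 TPM in the CD4-depleted library and 41.0 TPM in the isotype library. Its log2 ratio was 1.54 (1.36 to 1.74). Lag3 (ENSMUSG00000030124), whose product binds MHC class II, was scarce, with 116 counts in the CD4-depleted library and 28 in the isotype library. Its ratio of 2.04 had a wide interval, 1.45 to 2.71, whose lower end was still past 2-fold.

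The remaining genes were level or lower. Cd160 (ENSMUSG00000038304), a receptor for the herpesvirus entry mediator on cytotoxic and innate-like T cells, had 16.4 TPM in the IPF-LC CD4-depleted library and 30.4 TPM in the isotype library, a log2 ratio of -0.81 (-1.08 to -0.55). Vsir (ENSMUSG00000020101), which encodes VISTA, had 101 TPM after depletion and 144 TPM with isotype antibody, and its ratio was -0.46 (-0.53 to -0.39). Cd200r1 (ENSMUSG00000022667), the receptor for CD200, rested on 96 counts in the CD4-depleted and 142 in the isotype library and had a ratio of -0.56 (-0.95 to -0.18). These 3 lay on the lower side with intervals clear of 0 but short of 2-fold. Cd96 (ENSMUSG00000022657), the relative of TIGIT with the same ligand, was at 139 TPM in the CD4-depleted library and 168 TPM in the isotype library, a ratio of -0.22 (-0.29 to -0.15). Btla (ENSMUSG00000052013), which shares its ligand with CD160, was at 14.7 TPM in the CD4-depleted library and 13.7 TPM in the isotype library, a ratio of 0.22 (0.04 to 0.41). Havcr2 (ENSMUSG00000020399), which encodes TIM-3, was low in both, with 155 counts in the CD4-depleted library and 179 in the isotype library. Its ratio of -0.20 had an interval that crossed 0 (-0.52 to 0.11).

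In LC mice the same antibody comparison gave a different set. Ctla4 was again higher in the CD4-depleted library, Havcr2 and Lag3 were more than 2-fold lower, Pdcd1 was lower by less than 2-fold and Tigit was level. The counts past 2-fold were 1 of 10 higher and 2 of 10 lower, beside 2.59% higher and 5.85% lower among all genes at 10 CPM or more, and 5.85% and 15.4% at 1 CPM or more. The median log2 ratio of the 10 genes was 0.06, against 0.01 over all genes. Ctla4 had 159 TPM in the LC CD4-depleted library and 78.6 TPM in the LC isotype library. Its log2 ratio was 1.09 (1.00 to 1.18), or 2.12-fold, which is just past 2-fold and came to 0.81 when libraries were scaled to the CD3 chain genes.

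Havcr2 had 11.6 TPM in the LC CD4-depleted library and 38.9 TPM in the LC isotype library, from 337 counts after depletion and 1052 with isotype antibody. The log2 ratio was -1.66 (-1.84 to -1.48), a level 3.16-fold lower, and it was the only one of the 3 with its whole counting interval past 2-fold. Lag3 had 79 counts in the CD4-depleted library and 164 in the isotype library, and its ratio was -1.07 (-1.48 to -0.68). Pdcd1 had 68.8 TPM in the CD4-depleted library and 115 TPM in the isotype library, with a ratio of -0.66 (-0.76 to -0.56). So the Pdcd1 and Lag3 values lay on opposite sides of 0 in the 2 models. Tigit had 81.8 TPM in the CD4-depleted library and 85.3 TPM in the isotype library, and its ratio was 0.02 (-0.14 to 0.19), with the sign turning negative under the 4 other scalings tried, TPM included.

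Among the other genes in LC mice, Cd160 was again lower after depletion, with 20.3 TPM in the CD4-depleted library and 38.9 TPM in the isotype library and a ratio of -0.86 (-1.11 to -0.63). Cd96 was higher, with 163 TPM in the CD4-depleted library and 109 TPM in the isotype library and a ratio of 0.66 (0.58 to 0.73). Cd160 was therefore lower in both models, and Cd96 was not. Scaled to the CD3 chain genes, the Cd160 ratios were -0.62 in IPF-LC and -1.14 in LC, and the Cd96 ratios -0.03 and 0.38. Btla (0.09), Vsir (0.09) and Cd200r1 (0.27) had ratios near 0, and each of these 3 went below 0 when scaled to the CD3 chain genes.

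**Figure D2:**
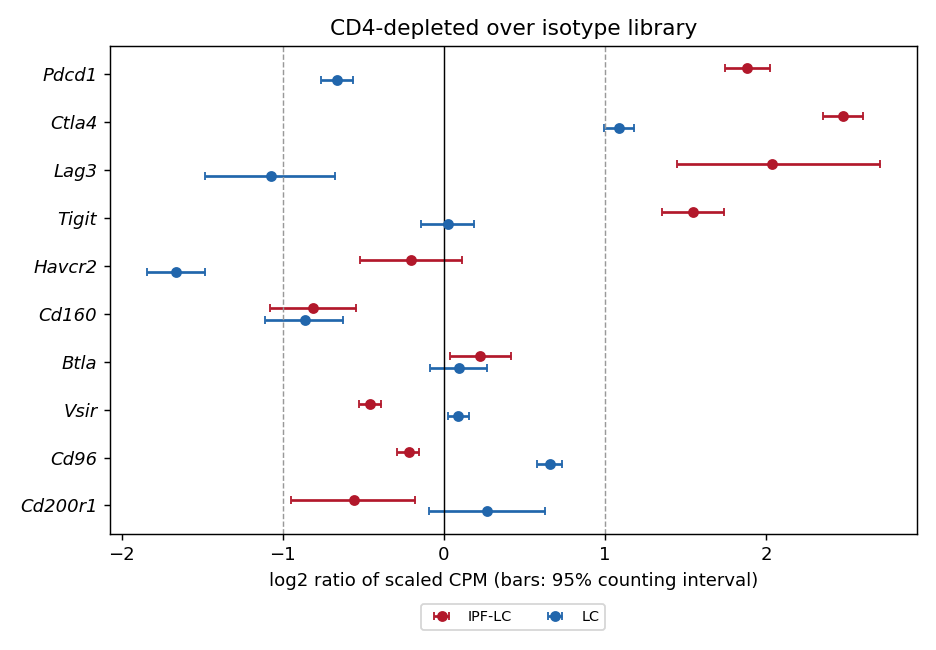
Log2 ratio of scaled CPM, CD4-depleted over isotype library, in IPF-LC (red) and LC (blue), with 95% counting intervals (n = 1 library per group) and dashed lines at 2-fold. Ctla4 lies to the right of 0 and Cd160 to the left in both models, while Pdcd1 and Lag3 lie at 1.88 and 2.04 in IPF-LC and at -0.66 and -1.07 in LC.

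The 2 depletion comparisons share no library, so their difference can be formed for each gene, with an interval that again covers counting error only and with no test. The difference, IPF-LC minus LC, was 3.10 for Lag3 (2.40 to 3.81), 2.54 for Pdcd1 (2.37 to 2.72), 1.52 for Tigit (1.27 to 1.77), 1.46 for Havcr2 (1.10 to 1.82) and 1.39 for Ctla4 (1.23 to 1.54). For Ctla4 both ratios were above 0 and the larger was in IPF-LC, whereas for Havcr2 the LC ratio was below 0 and the interval of the IPF-LC ratio crossed 0. Cd96 and Cd200r1 differed the other way, by -0.88 (-0.98 to -0.77) and -0.82 (-1.34 to -0.31), as did Vsir, by -0.55 (-0.65 to -0.46). The difference for Cd160 was 0.05 and for Btla 0.13, with intervals that crossed 0. Scaled to the CD3 chain genes, the differences of these 5 genes were -0.41 for Cd96, -0.36 for Cd200r1, -0.08 for Vsir, 0.52 for Cd160 and 0.60 for Btla.

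The model comparisons use the same 4 libraries as the depletion comparisons, paired the other way, so their values restate the same counts. With isotype antibody, the IPF-LC library had less Havcr2, Lag3, Pdcd1 and Ctla4 than the LC library. The counts past 2-fold were 0 of 10 higher and 4 of 10 lower in IPF-LC, beside 1.91% higher and 4.1% lower among genes at 10 CPM or more, and 5.32% and 11.7% at 1 CPM or more. The median ratio of the 10 genes was -0.65, against -0.01 over all genes. Havcr2 had 6.20 TPM in the IPF-LC isotype library and 38.9 TPM in the LC isotype library, a log2 ratio of -2.57 (-2.81 to -2.34). Lag3, with 28 counts in the IPF-LC and 164 in the LC isotype library, had a ratio of -2.55 (-3.20 to -1.98). Pdcd1 was 4.08-fold lower in IPF-LC at -2.03 (-2.17 to -1.89), and Ctla4 2.34-fold lower at -1.23 (-1.37 to -1.09). Tigit, at -0.98 (-1.19 to -0.78), lay just inside 2-fold and passed it under 4 other scalings. Cd96 was higher in the IPF-LC isotype library, at 0.70 (0.62 to 0.77), and Vsir at 0.31 (0.25 to 0.38), though Vsir turned to -0.12 when scaled to the CD3 chain genes, a scaling that moved the median of all genes to -0.41.

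After CD4 depletion, 1 receptor gene lay past 2-fold between the models, against 4 with isotype antibody. The counts past 2-fold were 0 of 10 higher and 1 of 10 lower in IPF-LC, beside 3.3% higher and 2.57% lower among genes at 10 CPM or more, and 9.59% and 7.61% at 1 CPM or more. The 1 gene was Havcr2, with 5.18 TPM in the IPF-LC CD4-depleted library and 11.6 TPM in the LC CD4-depleted library and a ratio of -1.11 (-1.40 to -0.83), whose interval reached inside 2-fold. Lag3, Tigit and Pdcd1 were 1.43- to 1.47-fold higher in the IPF-LC CD4-depleted library, with log2 ratios of 0.56 (0.14 to 0.99), 0.54 (0.39 to 0.69) and 0.52 (0.41 to 0.62). Ctla4 was nearly level at 0.16 (0.09 to 0.23). The median of the 10 genes was -0.17, against 0.00 over all genes.

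**Figure D3:**
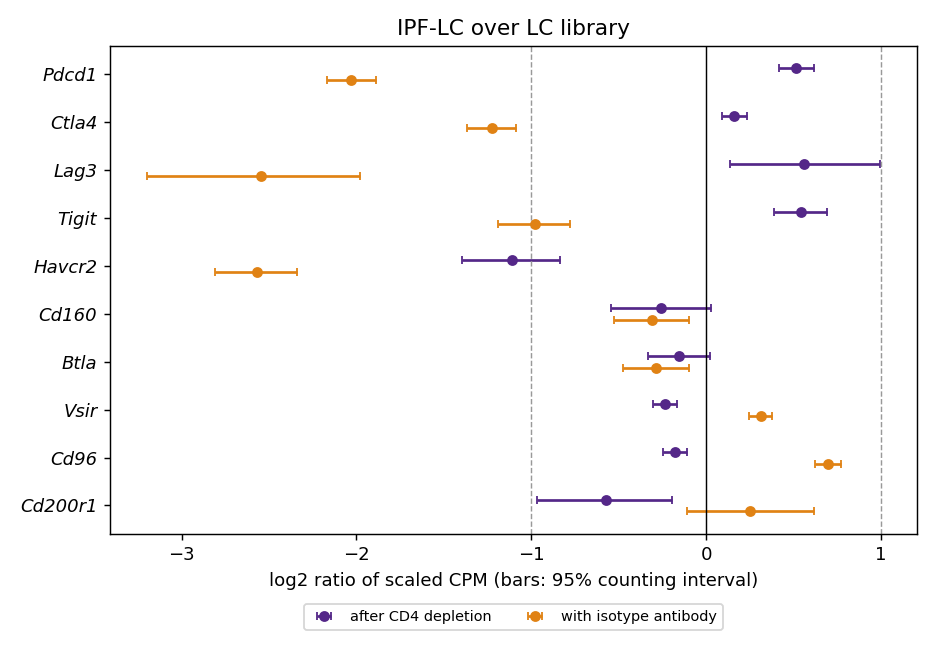
Log2 ratio of scaled CPM, IPF-LC over LC library, after CD4 depletion (purple) and with isotype antibody (orange), with 95% counting intervals (n = 1 library per group) and dashed lines at 2-fold. With isotype antibody Pdcd1, Ctla4, Lag3 and Havcr2 lie left of -1, and after depletion Havcr2 alone does, at -1.11.

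Several of these receptors act against a named activating partner, so their ratio within a library was formed on TPM. Ctla4 and Cd28 encode receptors for the same CD80 and CD86. The Ctla4/Cd28 ratio was 1.37 in the IPF-LC CD4-depleted library, 0.441 in the IPF-LC isotype library, 1.27 in the LC CD4-depleted library and 0.769 in the LC isotype library. Ctla4 RNA was thus above Cd28 RNA per length in both CD4-depleted libraries and below it in both isotype libraries. Cd28 itself was 1.72-fold higher in the IPF-LC CD4-depleted library than in its isotype library and 1.31-fold higher in the LC one. On counts, the change of the ratio with depletion was 3.23-fold in IPF-LC and 1.62-fold in LC.

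Tigit and Cd96 share the poliovirus receptor with Cd226, which gives an activating signal. The Tigit/Cd226 ratio was 4.94 in the IPF-LC CD4-depleted library, 0.964 in the IPF-LC isotype library, 3.10 in the LC CD4-depleted library and 2.57 in the LC isotype library. Both genes of the pair contributed in IPF-LC, since Cd226 had 23.4 TPM after depletion and 42.5 TPM with isotype antibody while Tigit was 2.92-fold higher. The size of this change depends on the scale: it was 5.12-fold on TPM and 7.77-fold on counts, because the abundance-weighted length of Cd226 was 1537 bases in the CD4-depleted library and 2187 bases in the isotype library. The Cd96/Cd226 ratio was 5.93, 3.95, 6.16 and 3.29 in the same order of libraries, higher after depletion in both models. For Pdcd1/Cd28, the ratio was 0.745 in the IPF-LC CD4-depleted library, 0.353 in the IPF-LC isotype library, 0.549 in the LC CD4-depleted library and 1.13 in the LC isotype library. PD-1 signalling acts on CD28, and this pair alone among the 4 plotted moved in opposite directions in the 2 models.

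**Figure D4:**
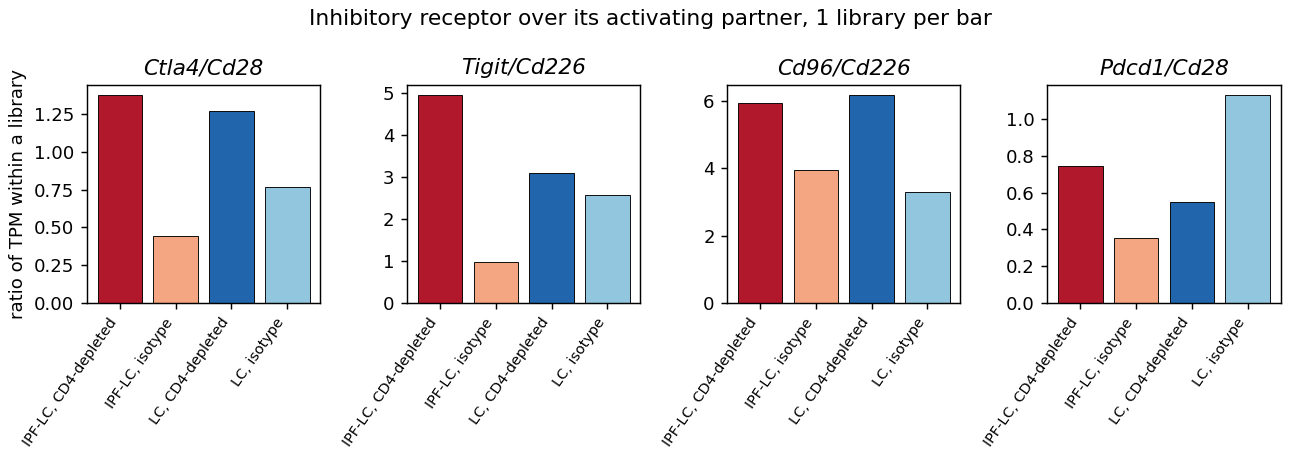
Ratio of TPM within a library for 4 pairs of an inhibitory receptor and an activating receptor, each bar 1 library, with a separate axis for each pair. Ctla4/Cd28, Tigit/Cd226 and Cd96/Cd226 are higher in the CD4-depleted bar of both models, and Pdcd1/Cd28 is higher only in IPF-LC (0.745 against 0.353).

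Markers of other cells were read beside the receptors that such cells also carry. Foxp3, the defining factor of regulatory T cells, which express high Ctla4, had 456 counts in the IPF-LC CD4-depleted library, 23 in the IPF-LC isotype library, 510 in the LC CD4-depleted library and 60 in the LC isotype library. It was higher after depletion in both models, as Ctla4 was, with log2 ratios of 4.28 in IPF-LC and 3.06 in LC. The 11 listed regulatory T cell markers without Ctla4, Foxp3 included, summed to 477, 227, 397 and 321 CPM in that order of libraries. Of the 12 listed markers, Ctla4 included, 11 averaged 1 CPM or more. Past 2-fold, 9 of these were higher and 0 lower with depletion in IPF-LC, beside 8.84% and 13.6% of all genes at that minimum. The 9 were Foxp3, Il2ra, Ikzf2, Ikzf4, Tnfrsf4, Ctla4, Lrrc32, Itgb8 and Ccr8. In LC 3 were higher (Foxp3, Ctla4 and Itgb8) and 2 lower (Lrrc32 at -1.74 and Ccr8 at -1.17), beside 5.85% and 15.4%. Itgb8 was at 0 in both isotype libraries and Il10 in the IPF-LC isotype library. Activated CD8+ T cells can also express Ctla4, Il2ra, Tnfrsf4 and Ikzf2. Ctla4 exceeded Foxp3 by a TPM ratio of 14.2 in the IPF-LC CD4-depleted library, 56.6 in the IPF-LC isotype library, 11.6 in the LC CD4-depleted library and 50.7 in the LC isotype library, so Foxp3 differed more with depletion than Ctla4 did. The part of these markers in the Ctla4 and Tigit results was not tested.

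Havcr2, Vsir and Cd200r1 are also expressed by myeloid cells. Havcr2 and the summed macrophage and monocyte markers were both highest in the LC isotype library, at 68.1 and 5254 CPM. Their orders differed otherwise: the LC CD4-depleted library had the lowest marker sum, 380 CPM, and the second highest Havcr2, 21.5 CPM, while the IPF-LC isotype library had 3613 CPM of markers and 11.5 CPM of Havcr2. Vsir ranged by 1.38-fold over the libraries and was lowest in the IPF-LC CD4-depleted library. Cd160 is also carried by natural killer cells, whose marker sum was, like Cd160, lower in the CD4-depleted library of each model. That sum includes Gzma and Prf1, which cytotoxic CD8+ T cells also express. Of the 10 natural killer markers averaging 1 CPM or more, 3 had depletion ratios above 0 in IPF-LC and 1 in LC. The part of these markers in the results for Havcr2, Vsir, Cd200r1 and Cd160 was not tested.

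**Figure D5:**
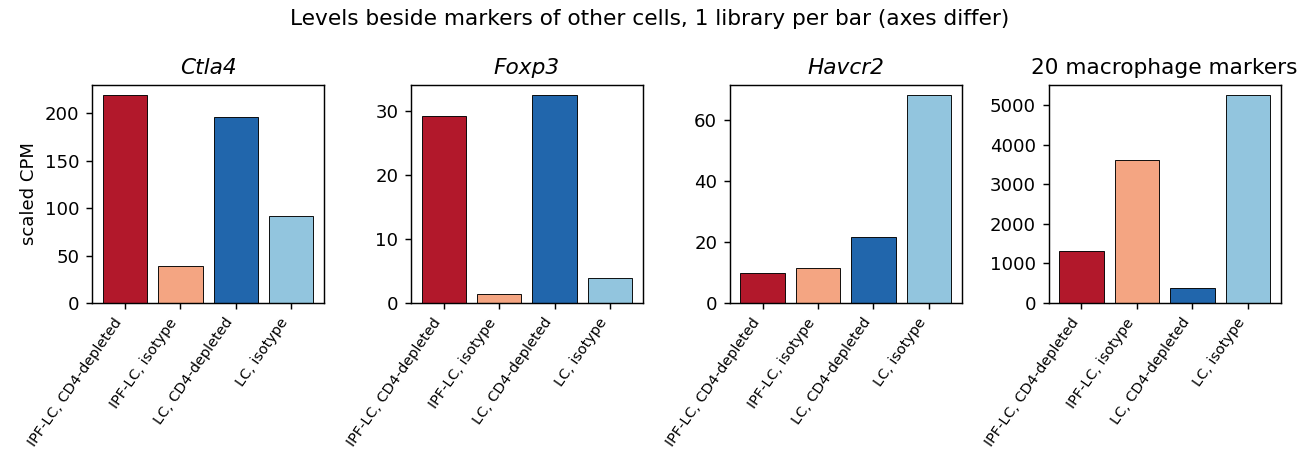
Scaled CPM of Ctla4, Foxp3, Havcr2 and the sum of 20 macrophage and monocyte markers, each bar 1 library, with axes that differ between panels. Foxp3 (29.3 and 32.5 CPM) and Ctla4 (219 and 196 CPM) are high in both CD4-depleted libraries, and Havcr2 peaks in the LC isotype library at 68.1 CPM.

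The ligands of these receptors can be made by the T cells themselves or by other cells in the sort. Of 18 listed ligand genes, 12 averaged 1 CPM or more. After depletion in IPF-LC 0 were higher by 2-fold and 3 lower (Cd80, Ceacam1 and Tnfrsf14), and in LC 0 were higher and 7 lower. Among all genes at 1 CPM or more, 8.84% were higher and 13.6% lower in IPF-LC, and 5.85% and 15.4% in LC. The ligand medians were -0.26 in IPF-LC and -1.14 in LC, beside -0.02 and 0.01 over all genes. The 7 in LC included Cd86, Pvr, Cd200, Pdcd1lg2 and Lgals3, in the comparison where the macrophage marker sum was 380 CPM after depletion and 5254 CPM with isotype antibody. Their relation to those markers was not tested. Cd274, which encodes PD-L1, had 149 CPM in the IPF-LC CD4-depleted library, 74.5 in the IPF-LC isotype library, 103 in the LC CD4-depleted library and 126 in the LC isotype library. Its log2 ratios with depletion, 1.00 (0.90 to 1.10) in IPF-LC, just under 2-fold, and -0.30 in LC, lay on the same sides of 0 as those of Pdcd1. Cd80 had 0 counts in the IPF-LC CD4-depleted library, 12 in the IPF-LC isotype library, 26 in the LC CD4-depleted library and 169 in the LC isotype library. Selplg, a VISTA ligand at low pH and a T cell adhesion molecule, stood at 1391 to 1610 CPM. Fgl1, a LAG-3 ligand made by liver and some tumours, had 0 counts in all 4 libraries, which allows a level of up to 3 counts in each.

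Among 13 activating or costimulatory partner genes, all measured, 2 were higher by 2-fold or more with depletion in IPF-LC (Tnfrsf4 and Tnfrsf9) and 2 lower (Cd226 and Tnfrsf14), with a median of 0.38. In LC 1 was higher (Slamf1) and 2 were lower (Tnfrsf9 and Cd244a), with a median of 0.30. Over all genes at 1 CPM or more, the shares past 2-fold were 8.84% higher and 13.6% lower in IPF-LC, and 5.85% higher and 15.4% lower in LC, against which this and the following lists are to be read. Tnfrsf9, which encodes the activation-induced receptor 4-1BB, had ratios of 1.85 in IPF-LC and -1.26 in LC, on opposite sides of 0 as for Pdcd1 and Lag3. Among 17 other inhibitory receptor genes, 3 were higher (Klrg1, Entpd1 and Il10ra) and 3 lower (Cd300a, Pilra and Ceacam1) in IPF-LC, and 0 were higher and 9 lower in LC. Their medians were -0.05 in IPF-LC and -1.25 in LC. Several of those lower in LC, such as Lilrb4a, Cd300a and Pilra, are mainly myeloid receptors. Entpd1, which encodes the ectoenzyme CD39, had ratios of 1.57 in IPF-LC and -2.23 in LC, and Il10ra, an interleukin-10 receptor chain, 1.78 in IPF-LC and -1.41 in LC.

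Of 22 genes of the signalling pathway behind these receptors, 1 was higher by 2-fold or more with depletion in IPF-LC (Dok1) and 1 lower (Ptpn6), and in LC 1 was higher (Ppp2ca) and 2 were lower (Ptpn6 and Gab2). The medians were 0.19 in IPF-LC and 0.07 in LC, and the counts were below those shares of all genes in both directions and both models. Ptpn6, which encodes the phosphatase SHP-1, had 49.5 CPM in the IPF-LC CD4-depleted library, 183 in the IPF-LC isotype library, 79.0 in the LC CD4-depleted library and 258 in the LC isotype library. It was lower after depletion in both models, with log2 ratios of -1.88 (-2.00 to -1.77) in IPF-LC and -1.70 (-1.80 to -1.61) in LC. SHP-1 is also abundant in macrophages and B cells, whose marker sums were lower in the CD4-depleted library of each model. Of the 8 B cell markers averaging 1 CPM or more, 1 had a depletion ratio above 0 in IPF-LC and 3 in LC. The part of these cells in the Ptpn6 result was not tested. Ptpn11, which encodes SHP-2, the main phosphatase behind PD-1, was at 0.36 in IPF-LC and -0.01 in LC.

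Of 24 activation and exhaustion factors, 6 were higher by 2-fold or more with depletion in IPF-LC (Tox, Tox2, Maf, Ikzf2, Bhlhe40 and Hif1a) and 2 lower (Fos and Egr2), and in LC 0 were higher and 1 lower (Fos). Their medians were 0.48 in IPF-LC and -0.03 in LC, and the lower counts were below the 13.6% and 15.4% of all genes. Tox had 108 CPM in the IPF-LC CD4-depleted library, 52.7 in the IPF-LC isotype library, 64.1 in the LC CD4-depleted library and 76.7 in the LC isotype library. Its ratios, 1.04 (0.92 to 1.16) in IPF-LC and -0.26 (-0.38 to -0.14) in LC, had the signs of those of Pdcd1 and were smaller. Prdm1, the gene of the effector factor Blimp-1, was at 0.97 in IPF-LC and -0.31 in LC, and Batf, an AP-1 family factor, at 0.81 in IPF-LC and 0.28 in LC. Nr4a1, an immediate target of antigen receptor signalling, was at -0.25 in IPF-LC and -0.13 in LC.

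Genes with the most similar pattern to each receptor over the 4 libraries were sought among 8190 genes. The measure was the root mean squared difference of centred log2 CPM, with 0.5 CPM added before the log, where 0 means the same pattern. The nearest to Pdcd1 were Bhlhe40 (0.154), Gtpbp10 (0.171) and Ddias (0.205), and those near Ctla4 included Maf (0.121) and Kif4 (0.160). Bhlhe40 and Maf are transcription factors of activated T cells. Lag3 was nearest to Pdcd1 itself (0.140), then to Selenon (0.145) and Tnfrsf9 (0.200), and Tigit to Dennd5a (0.0471). The added 0.5 CPM flattens the pattern of scarce genes such as Lag3, at 1.79 CPM in the IPF-LC isotype library. The order of the genes nearest to Lag3 depends on it. Havcr2 had no close match, with Ifitm2 at 0.243, Irf5 at 0.305 and Csf1 at 0.382. Among pairs of receptors, the closest were Cd200r1 and Vsir (0.113) and then Lag3 and Pdcd1, while Ctla4 and Havcr2 were farthest apart (1.49). With 4 libraries many genes lie near any such pattern, so these are descriptions.

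A model over all 4 libraries, with terms for model and depletion, was used to test depletion. It leaves 1 residual degree of freedom, which is how far the 2 depletion ratios differ, so genes whose 2 depletion ratios differ are judged against that difference. In edgeR's quasi-likelihood test 0 of the 10 receptors passed a Benjamini-Hochberg adjusted p under 0.05, and so did 0.0% of 13045 genes, with 1214 genes and 1 receptor at an unadjusted p under 0.05. That receptor was Ctla4, with a log2 change of 1.78, higher after depletion in both models, and an adjusted p of 0.422 (0.166 to 0.446 over the edgeR settings tried). In limma-voom the adjusted p of Ctla4 was 0.170, no gene passed, and 1537 genes and 2 receptors were at an unadjusted p under 0.05, the other being Havcr2 with a log2 change of -1.28 and an adjusted p of 0.317. DESeq2 called 1 receptor, Ctla4, with an adjusted p of 3.67e-05, beside 0.767% of genes called higher and 2.91% called lower.

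The counting itself bears on a few of these genes. The abundance-weighted lengths that RSEM reports did not vary for Pdcd1, Lag3, Tigit, Havcr2 and Cd96, so for these 5 genes TPM and count ratios differ only through library scaling. Those of Ctla4 lay between 1847 and 1925 bases and those of Btla between 2825 and 3051 bases. In the GENCODE M21 annotation, which is on an older build, Ctla4 has transcripts of 1933, 614 and 691 bases, and the reported lengths sit near the longest. Vsir lies within Cdh23, which had 25 to 56 counts against 3105 to 4283 for Vsir, and Ctla4 overlaps the pseudogene Rpl18-ps1, which had 13 to 22 counts. Cd200r1 is uncertain, because reads can be shared with its near copies: Cd200r4 had 143 to 413 counts and Cd200r2 had 68 counts in the IPF-LC CD4-depleted library, 40 in the LC isotype library and 0 in the other two.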

How the data were processed

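RNA-seq of 4 libraries, 1 per group, was analysed; libraries were assigned by the labels alone. Per the submitters' processing notes, RSEM 1.3.3, STAR 2.7.11a, fastp 0.23.4 and MultiQC 1.25.2 were used, in roles that are not stated, on build GRCm39 (mm39). Which annotation release was used is not given in the sources used here. Per the file headers, the authors deposited for each of 55401 genes an expected count (an RSEM-style estimate of reads, not normalised, 5.49 to 5.89% of values not whole), TPM, FPKM, length and effective length. The deposited expected counts and TPM were used, the deposited FPKM values were not, and the deposited lengths (in bases) entered 1 description.

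Expected counts were rounded to whole numbers and scaled by TMM (edgeR 4.0.16, R 4.3.3), with factors between 0.961 and 1.03. Log2 ratios used a prior count of 0.5 and an exact conditional binomial 95% interval (scipy 1.17.1), which covers counting error only. The interval of a difference between 2 ratios came from summed counting variances. Counts past 2-fold were set beside all genes averaging 10 CPM or more (8433) or 1 CPM or more (12231). The additive model was fitted by edgeR over genes kept by filterByExpr, two-sided, with DESeq2 1.42.0 and limma 3.58.1 (voom) as alternatives. Ratios and intervals were run on simulated counts with counting error only. The model was run on simulated counts with the same fold in both mouse models and less spread than the real fit had. How it performs on data like these was not tested.

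The receptors and all lists were chosen with earlier results of these data known, so no list gives independent support. All 10 receptors are described; from other lists, a preset group (such as Foxp3, Cd28, Cd226, Cd274, Ptpn6 and Tox) and up to 4 genes with the largest ratios at 10 CPM or more are given values. For most short counts of genes, the genes or some of them are named, some below 10 CPM and so chosen after their values were seen. In the lists, symbols of gamma delta T cell genes were changed to those of the tables, and 1 gene, Tmigd2, was dropped because no row bore its symbol. Alternatives were other scalings (DESeq2 size factors, no factor, the summed CD3 chain genes, TPM), a prior count of 2, a fold of 1.5 and the whole interval past 2-fold. A result for 1 gene is not reported here. No per-sample columns other than those named were present.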

Additional observations from a re-analysis of the deposited data

Results flagged for a closer look

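The depletion ratios of 4 of the 10 receptor genes lay on opposite sides of 0 in the 2 models, with both counting intervals clear of 0. The difference of log2 ratios, IPF-LC minus LC, was 3.10 for Lag3 (2.04 in IPF-LC and -1.07 in LC) and 2.54 for Pdcd1 (1.88 in IPF-LC and -0.66 in LC). It was -0.88 for Cd96 (-0.22 in IPF-LC and 0.66 in LC) and -0.55 for Vsir (-0.46 in IPF-LC and 0.09 in LC). With 1 library per group none of these differences was tested. For Vsir the opposite directions rest on the scaling: scaled to the CD3 chain genes, Vsir had -0.27 in IPF-LC and -0.18 in LC. Under that scaling Cd96 kept opposite signs, at -0.03 in IPF-LC and 0.38 in LC, but its IPF-LC value was near 0.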

How the results depend on the processing

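Of the 10 receptors in IPF-LC, 4 were past 2-fold with depletion under every scaling, with a prior count of 2 and with the whole counting interval past 2-fold (2.45% of genes higher and 3.85% lower), and 5 at a fold of 1.5 (1097 higher and 1262 lower of 8433 genes). In LC the count of 3 became 6 at a fold of 1.5, beside 783 higher and 929 lower of 8433 genes, and 1 (Havcr2) with the whole interval past 2-fold, beside 1.58% and 4.83%. For IPF-LC over LC after depletion the count of 1 became 0 with the whole interval past 2-fold, beside 2.09% higher and 1.21% lower. With isotype antibody the count of 4 became 5 under the other scalings, Tigit being added, with 4.30% of genes lower under DESeq2 size factors, 4.34% with no factor and 10.5% under CD3 chain scaling. In the additive model 0 receptors were called by edgeR under any setting or by limma-voom, and 1 by DESeq2.

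Scaling to the CD3 chain genes moved the median of all genes to 0.19 for depletion in IPF-LC, -0.22 for depletion in LC, -0.41 for the models with isotype antibody and 0.03 after depletion. It moved 22 of the 40 log2 ratios and 8 of the 10 differences outside their counting intervals, and in LC it left 0 receptors higher and 3 lower by 2-fold, beside 1.23% of genes higher and 8.57% lower. The depletion shares in IPF-LC were then 6.93% higher and 4.33% lower. TPM moved 3 of the 40 ratios. The signs that turned belonged to ratios under 2-fold: Tigit, Btla, Vsir and Cd200r1 with depletion in LC, and Vsir and Cd200r1 between the models with isotype antibody. No paired analysis was possible because each group has 1 library and the labels give no replicate numbers; for the same reason no replicate could be left out. Depth limits Lag3 and Cd200r1 most, with 28 to 164 and 96 to 144 counts.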
